A study of Mus musculus with 9 samples.

Results

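The genes of the Eya, Six-type and Dach families followed here were Eya1, Eya2, Eya3, Eya4, Six4 and Dach1. They were read from every probe set that the platform annotation assigned to 1 of these symbols alone, which gave 19 of the 45101 probe sets of the array, for 6 of the 18194 genes it names. Eya1 had 3 probe sets, Eya2 had 1, Eya3, Eya4 and Six4 had 4 each, and Dach1 had 3. The genes were picked by name, but with the group differences of these same arrays already known. Their differences are therefore a description, and the limma adjusted p-values beside them only place each probe set in the fit over the whole array.

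Products of the 3 families work together in animal development, in a circuit first described in the fly eye. Six-family proteins are homeodomain transcription factors that bind DNA. Eya proteins do not bind DNA by themselves; they join Six-family proteins as coactivators and also carry a phosphatase activity, while Dach proteins act mainly as corepressors. In mouse blood progenitors, Eya1 is known among the genes that MLL fusion proteins can switch on.

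Expression was measured on 9 one-colour Affymetrix arrays of freshly harvested mouse bone marrow cells, 3 arrays in each of 3 groups, all on a mixed C57/BL6 X 129 background. Af10 deleted leukemias were driven by MLL-AF9, carried both floxed copies of Af10 (gene symbol Mllt10, a partner of the histone methyltransferase DOT1L), had received a retroviral MSCV-IRES-tdTomato vector with Cre recombinase, and were sorted for tdTomato from secondary recipients. Af10 floxed leukemias were the same in all these respects except that the tdTomato vector (MIT) held no Cre. Hoxa9-Meis1 leukemias were primary leukemias made by transducing both of these genes, and their cells were neither sorted nor otherwise treated. Cre itself cannot be told apart from loss of Af10, nor can oncogene, sorting, vector and transplant generation in comparisons with Hoxa9-Meis1 leukemias. The labels do not say whether the arrays of a group come from separate primary leukemias or mice, so p-values measure only the spread between these samples, which may be technical.

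All levels below are log2(intensity + 1) of the deposited values, differences are on the same log2 scale, and a fold is 2 raised to the difference. Levels of different probe sets cannot be set against each other. Background was gauged by 9 probe sets for Kdm5d, Eif2s3y and Uty, genes of the Y chromosome, whose levels ran from 2.97 to 4.71 over the arrays. A level in this Y-linked range is near background, and a fold against it is understated. Arrays correlated at 0.980 to 0.990 within groups (Pearson's r over probe sets) and had median intensities of 146 to 156. All 4 probe sets of Mllt10 were lower in deleted than in floxed leukemias, with differences from -1.05 to -0.76 (limma adjusted p from 0.00105 to 0.0328). The call of the brightest ended without deleted replicate 4, 5 or 6, floxed replicate 4 or 6 or Hoxa9-Meis1 replicate 2 (0.0507 to 0.0974). All 8 myeloid markers, among them Mpo, Itgam and Ptprc, lay at 8.97 or above on every array.

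Calls were made where the limma adjusted p, by Benjamini-Hochberg over all 45101 probe sets, was below 0.05. Of the 19 probe sets, 4 were called between deleted and floxed leukemias, all higher in deleted, where 6.16% of the whole array was called, 2.4% higher and 3.76% lower. They were the 3 Eya1 probe sets and a Dach1 probe set. The levels of those 4 did not overlap between the groups, as was so for 24.8% of the array. Between floxed and Hoxa9-Meis1 leukemias 6 were called, 3 higher and 3 lower in floxed, against 9.01% of the array, 4.94% higher and 4.07% lower. In this comparison 12 did not overlap, against 28.1% of the array. Between deleted and Hoxa9-Meis1 leukemias 8 were called, 6 higher and 2 lower in deleted, against 15.0% of the array, 7.19% higher and 7.82% lower. Here 13 did not overlap, against 34.2% of the array. The median difference of the 19 was 0.11, -0.17 and 0.25 in these comparisons, in that order, and that of all probe sets 0.04, -0.03 and 0.02. The 3 comparisons share their arrays, so their calls do not stand on separate data. In each comparison several calls come from probe sets of the same gene, so these counts are not counts of genes.

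**Figure D1:**
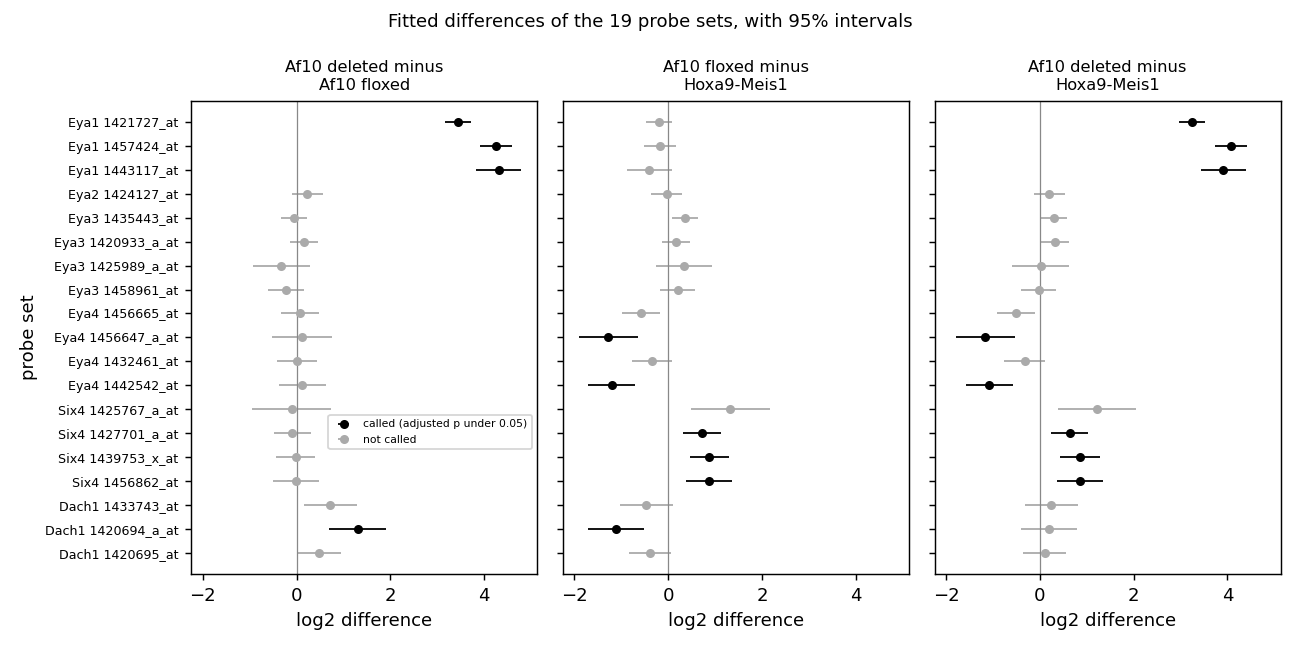
Fitted log2 difference (x axis) of each of the 19 probe sets (y axis) in the 3 comparisons, with 95% intervals from limma; black marks called probe sets. The 3 Eya1 probe sets stand far to the right where deleted leukemias are on top, at 3.24 to 4.32, and near 0 between floxed and Hoxa9-Meis1 leukemias.

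Eya1, which encodes a coactivator of Six-family proteins, was high in Af10 deleted leukemias and low in the other groups. By probe set 1421727_at its level was 9.17, 9.03 and 9.28 on the deleted arrays, against 5.82, 5.65 and 5.69 on the floxed arrays and 5.98, 5.76 and 6.03 on the Hoxa9-Meis1 arrays. Every deleted array stood far above every other array, while floxed and Hoxa9-Meis1 levels overlapped. The mean was 9.16 ± 0.13 in deleted, 5.72 ± 0.09 in floxed and 5.92 ± 0.14 in Hoxa9-Meis1 leukemias (SD, n = 3 each).

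At the other Eya1 probe sets every deleted array again stood above every other array. Probe set 1457424_at was at 9.03, 8.86 and 9.27 in deleted, against 4.75, 4.69 and 4.96 in floxed and 5.02, 5.13 and 4.76 in Hoxa9-Meis1 leukemias. Probe set 1443117_at was at 8.94, 8.39 and 8.03 in deleted, against 4.25, 4.03 and 4.13 in floxed and 4.69, 4.56 and 4.37 in Hoxa9-Meis1 leukemias. On all 6 arrays without deletion the last probe set lay within the Y-linked range, with floxed levels below the Hoxa9-Meis1 levels and no overlap.

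Relative to floxed leukemias Eya1 rose by 3.44 (SE 0.12, 10.8-fold, limma adjusted p = 9.4e-06), by 4.25 (SE 0.15, 19.0-fold) and by 4.32 (SE 0.21, 19.9-fold) at the 3 probe sets in the order above. Relative to Hoxa9-Meis1 leukemias Eya1 was higher in deleted leukemias by 3.24 (9.43-fold), 4.08 (17.0-fold) and 3.91 (15.1-fold). Between floxed and Hoxa9-Meis1 leukemias the differences were -0.20, -0.17 and -0.40, and none was called (smallest limma adjusted p 0.295). The 95% interval of the first of these ran from -0.48 to 0.08. Over the 9 arrays the 3 probe sets correlated with each other at 0.988 to 0.995 (Pearson's r, a description of arrays that share groups).

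Eya1 lies on chromosome 1, and genes of that chromosome were raised on 1 array. The median deviation of its 2148 probe sets from their mean over all arrays was 0.16 on deleted replicate 6, and between -0.04 and 0.00 on the other arrays. With each array centred on its chromosome medians the Eya1 difference between deleted and floxed leukemias was 3.37, and with deleted replicate 6 and floxed replicate 5 both left out it was 3.34. The 6 nearest measured protein-coding genes on either side of Eya1 (Ncoa2, Tram1, Lactb2, Msc, Trpa1 and Terf1, listed after their values were seen) differed between deleted and floxed leukemias by -0.30 to 0.05, and limma called 0 of them (smallest limma adjusted p 0.346). Some neighbours of other members were called. Of 6 near each, the calls in the 3 comparisons, in the order above, were 0, 1 and 1 for Eya2 and 1, 2 and 2 for Eya3. They were 0, 0 and 1 for Eya4, 0, 1 and 1 for Six4 and 0 throughout for Dach1, beside 6.39%, 8.66% and 14.9% of all genes. Slc13a3 near Eya2 was higher than in Hoxa9-Meis1 leukemias by 4.13 in deleted and 3.25 in floxed leukemias.

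Of 5 measured T and NK cell markers, 2 were called higher in deleted than in floxed leukemias, where 6.39% of all genes were called. Of the 5, 4 had an unadjusted limma p under 0.05. The median difference of the 5 was 0.55, against 0.06 for all genes. The summed intensity of the 5 was 502 to 508 in deleted, 302 to 329 in floxed and 297 to 341 in Hoxa9-Meis1 leukemias, and Cd3e and Klrd1 rose relative to floxed leukemias, by 0.93 and 1.13 (limma adjusted p = 0.00343 and 0.0159). The call of Klrd1 ended without deleted replicate 4 (0.0528) or floxed replicate 5 (0.0597). Among 4 B cell markers Cd79b was lower in deleted than in floxed leukemias (difference -0.75, limma adjusted p = 0.00613), while Cd79a (0.86), Ms4a1 (0.64) and Ebf1 (0.20) were not called. The summed intensity of the 4 was 950 to 1016 in deleted, 1097 to 1338 in floxed and 872 to 984 in Hoxa9-Meis1 leukemias. The part of these cells in the Eya1 levels was not tested. In bulk samples fewer cells of a type and less RNA per cell cannot be told apart.

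Several markers passed against Hoxa9-Meis1 leukemias, where Cd3e and Klrd1 were also higher in deleted leukemias, by 1.02 and 1.17. Of all genes, 14.9% were called in this comparison for deleted and 8.66% for floxed leukemias. The myeloid surface gene Cd33 was higher in deleted by 1.63 and in floxed by 1.40, the only 1 of 8 myeloid markers called. The floxed call ended without floxed replicate 4 or 6 or Hoxa9-Meis1 replicate 1 or 2 (limma adjusted p from 0.0533 to 0.073). The median difference of the 8 was 0.22 for deleted and -0.26 for floxed leukemias, against 0.05 and -0.01 for all genes. Their summed intensity was 59429 to 63140 in deleted, 47625 to 60212 in floxed and 61701 to 66151 in Hoxa9-Meis1 leukemias. Cd79a was higher in deleted by 1.30, a call that ended without deleted replicate 4 or 6 or Hoxa9-Meis1 replicate 1 or 2 (0.0513 to 0.0661). Cd79b was higher in floxed by 0.45, a call that ended without any 1 of the arrays except deleted replicate 6 (0.0533 to 0.106). The muscle gene Mylpf was higher in deleted by 0.86, as were the endothelial gene Cdh5 by 0.58 and the erythroid gene Klf1 by 0.81. Each was the only gene called in its list, of 6 muscle, 7 stromal and endothelial and 4 erythroid markers. The median differences of these lists were -0.02, -0.07 and 0.06, against 0.05 for all genes. The Cdh5 call ended without any 1 of the arrays except floxed replicates 4 and 5 (0.0577 to 0.137), and the Klf1 call without any 1 except deleted replicate 5 and Hoxa9-Meis1 replicate 3 (0.0535 to 0.138).

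**Figure D2:**
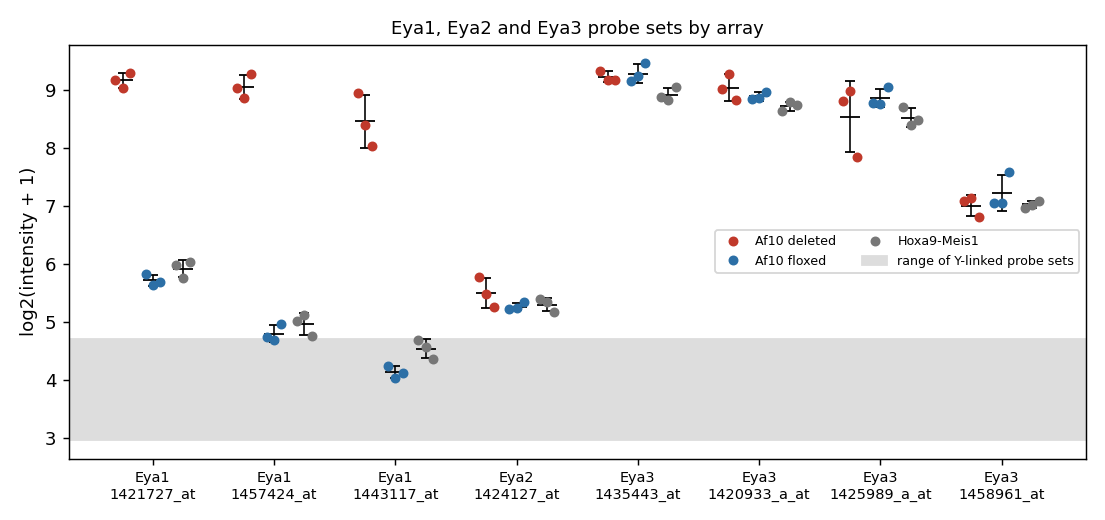
Level of each Eya1, Eya2 and Eya3 probe set on every array (log2 of intensity + 1); points are arrays, black bars the group mean ± SD (n = 3), and the grey band the Y-linked range. Deleted leukemias stand at 8.03 to 9.28 for Eya1, and deleted and floxed leukemias overlap for Eya2 and Eya3.

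The other Eya genes did not follow Eya1. Eya2, another coactivator of this family, was dim at its only probe set: 5.77, 5.48 and 5.26 in deleted, 5.22, 5.24 and 5.34 in floxed and 5.39, 5.34 and 5.17 in Hoxa9-Meis1 leukemias. The groups overlapped, and the difference between deleted and floxed leukemias was 0.23 (95% interval -0.09 to 0.56, limma adjusted p = 0.388).

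Eya3, the broadly expressed member of the family, was clearly above background on every array. Its probe set 1435443_at was at 9.33, 9.17 and 9.17 in deleted, 9.15, 9.24 and 9.45 in floxed and 8.87, 8.82 and 9.05 in Hoxa9-Meis1 leukemias. Deleted and floxed levels overlapped, and both lay above those of Hoxa9-Meis1 leukemias without being called, at differences of 0.31 for deleted (limma adjusted p = 0.138) and 0.36 for floxed leukemias (0.108). The difference for floxed leukemias passed with array weights (0.0426). At the other 3 Eya3 probe sets the differences between deleted and floxed leukemias were 0.15, -0.32 and -0.22, and none was called. Relative to Hoxa9-Meis1 leukemias these probe sets differed by 0.32, 0.02 and -0.02 in deleted and by 0.17, 0.34 and 0.20 in floxed leukemias, and none was called. At 1425989_a_at deleted replicate 6 stood low with 7.84, while deleted replicates 4 and 5 had 8.80 and 8.97.

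Eya4, which like its relatives encodes a coactivator and phosphatase, was highest in Hoxa9-Meis1 leukemias. At probe set 1456647_a_at its level was 5.07, 5.13 and 5.19 in deleted and 5.23, 4.72 and 5.09 in floxed leukemias, against 5.93, 5.92 and 7.02 in Hoxa9-Meis1 leukemias. The last of the Hoxa9-Meis1 arrays, replicate 3, stood well above the others, and both MLL-AF9 groups lay below all of them. At probe set 1442542_at the levels were 4.16, 4.19 and 3.77 in deleted and 3.74, 3.95 and 4.08 in floxed leukemias, against 4.72, 5.07 and 5.59 in Hoxa9-Meis1 leukemias. All 6 MLL-AF9 arrays lay within the Y-linked range there.

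Eya4 was lower than in Hoxa9-Meis1 leukemias in both MLL-AF9 groups at 1456647_a_at, in deleted (difference -1.16, SE 0.28, limma adjusted p = 0.0241) and in floxed leukemias (difference -1.28, limma adjusted p = 0.0245). The differences at 1442542_at were -1.08 and -1.21 (0.0122 and 0.0123). The remaining probe sets differed in the same direction, by -0.50 and -0.58 at 1456665_at and by -0.33 and -0.34 at 1432461_at, and were not called. Between deleted and floxed leukemias all 4 differences lay between 0.01 and 0.12. Without Hoxa9-Meis1 replicate 3 the differences at 1456647_a_at were -0.80 for deleted and -0.91 for floxed leukemias and stayed called (0.0156 and 0.0142). That call ended for deleted leukemias without deleted replicate 4 (0.073), 5 (0.065) or 6 (0.0529), and for floxed leukemias without floxed replicate 5 (0.0838) or 6 (0.0529), with a pseudocount of 32 (0.0527) or with deleted arrays kept out of the fit (0.0639). With deleted replicate 6 and floxed replicate 5 both left out it ended for both (0.0599 and 0.104), and at 1442542_at for deleted leukemias (0.0527). At 1456665_at deleted leukemias passed without Hoxa9-Meis1 replicate 1 (0.0484).

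**Figure D3:**
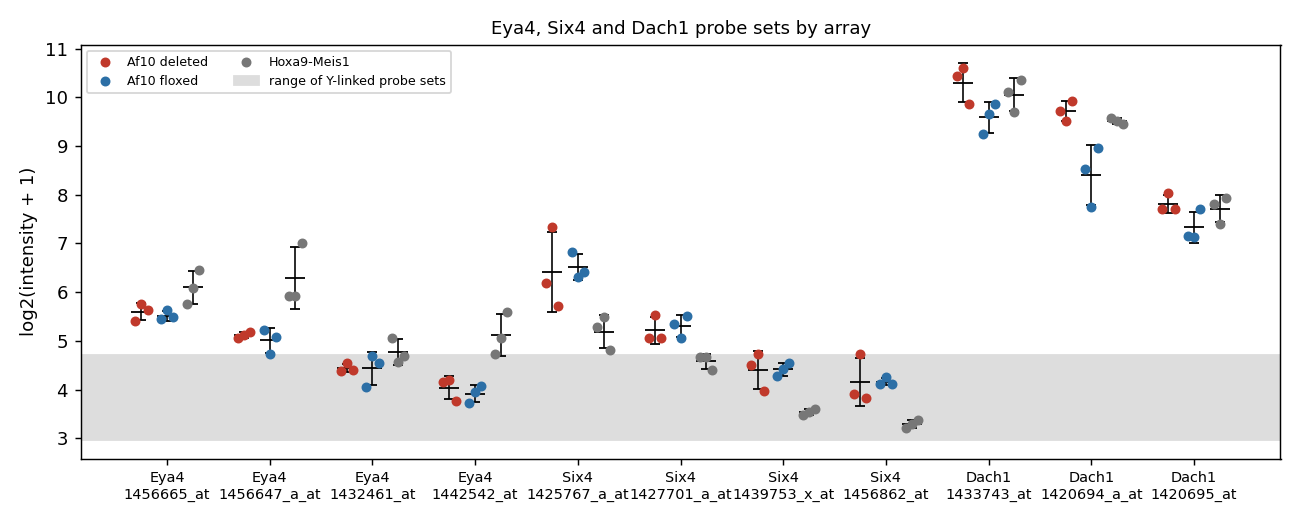
Level of each Eya4, Six4 and Dach1 probe set on every array (log2 of intensity + 1), drawn with points for arrays, bars for the mean ± SD (n = 3) and a grey band for the Y-linked range. Hoxa9-Meis1 leukemias have the highest means for Eya4 and the lowest for Six4, and floxed leukemias have the lowest means for Dach1.

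Six4, the homeodomain member of the set, ran opposite to Eya4: it was lowest in Hoxa9-Meis1 leukemias. At probe set 1425767_a_at its level was 6.19, 7.33 and 5.72 in deleted and 6.83, 6.31 and 6.41 in floxed leukemias, against 5.28, 5.48 and 4.81 in Hoxa9-Meis1 leukemias. Deleted replicate 5 was the highest array, and no MLL-AF9 array reached down to the Hoxa9-Meis1 levels. The differences there were 1.22 for deleted (SE 0.37, limma adjusted p = 0.0587) and 1.32 for floxed leukemias (0.0604), and neither was called. The call was gained for deleted leukemias without deleted replicate 6 (difference 1.56, 0.0241), and for floxed leukemias without deleted replicate 5 (0.0141) or 6 (0.0355). It was also gained with array weights (0.0305 for deleted and 0.0452 for floxed leukemias), for floxed leukemias with deleted arrays kept out of the fit (0.0196), and for deleted leukemias with deleted replicate 6 and floxed replicate 5 both left out (0.0341).

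The other 3 Six4 probe sets were called in both comparisons, but lay at or near background. At 1427701_a_at the levels were 5.06, 5.53 and 5.06 in deleted and 5.34, 5.06 and 5.52 in floxed leukemias, against 4.67, 4.68 and 4.41 in Hoxa9-Meis1 leukemias. The differences were 0.63 for deleted (SE 0.18, limma adjusted p = 0.0409) and 0.72 for floxed leukemias (0.0357). At 1439753_x_at the differences were 0.86 and 0.87 (0.0151 and 0.0216), and at 1456862_at 0.85 and 0.87 (0.03 and 0.0404). At these last 2 probe sets the Hoxa9-Meis1 arrays lay at 3.22 to 3.61, within the Y-linked range, as did most MLL-AF9 arrays. Groups did not overlap at any of the 4 probe sets in either comparison.

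Each of the 6 Six4 calls ended when some single array was left out. For deleted leukemias the call at 1427701_a_at ended without any 1 of deleted replicates 4, 5 and 6, floxed replicate 4 or Hoxa9-Meis1 replicates 1, 2 and 3 (limma adjusted p from 0.0526 to 0.116). The call at 1439753_x_at ended without deleted replicate 4 or Hoxa9-Meis1 replicate 1 or 2 (0.0502 to 0.059), and that at 1456862_at without any 1 of the Hoxa9-Meis1 arrays (0.054 to 0.0991). For floxed leukemias the calls ended without floxed replicate 4 or 6 or any Hoxa9-Meis1 array at 1427701_a_at (0.0815 to 0.0973). They ended without floxed replicate 5 or 6 or Hoxa9-Meis1 replicate 1 or 2 at 1439753_x_at (0.061 to 0.0836), and without any floxed or Hoxa9-Meis1 array at 1456862_at (0.0667 to 0.134). A pseudocount of 32 ended all 6 (0.0514 to 0.141). Between deleted and floxed leukemias the 4 Six4 differences lay between -0.10 and -0.01 and none was called. Mnat1, a gene next to Six4, was also higher than in Hoxa9-Meis1 leukemias, by 0.60 in deleted (limma adjusted p = 0.0451) and by 0.88 in floxed leukemias (0.0145). A link between it and the Six4 levels was not tested.

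Dach1, a corepressor gene, was lowest on average in floxed leukemias. At probe set 1420694_a_at its level was 9.71, 9.51 and 9.92 in deleted, against 8.52, 7.75 and 8.96 in floxed and 9.58, 9.51 and 9.46 in Hoxa9-Meis1 leukemias. Every floxed array lay below every array of the other groups, with floxed replicate 5 the lowest, and deleted and Hoxa9-Meis1 levels overlapped.

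At that probe set Dach1 rose in deleted relative to floxed leukemias by 1.30 (SE 0.27, 2.47-fold, limma adjusted p = 0.0235). It was lower in floxed than in Hoxa9-Meis1 leukemias (difference -1.11, limma adjusted p = 0.0344). Deleted and Hoxa9-Meis1 leukemias differed by 0.20 (95% interval -0.41 to 0.80). Its other 2 probe sets pointed the same way without being called. At 1433743_at the levels were 10.44, 10.60 and 9.86 in deleted, against 9.24, 9.66 and 9.86 in floxed and 10.11, 9.70 and 10.36 in Hoxa9-Meis1 leukemias, and the difference between deleted and floxed was 0.72 (limma adjusted p = 0.137). At 1420695_at that difference was 0.49 (0.199). The deleted against floxed call ended without deleted replicate 4 (0.0701) or 6 (0.071), when Hoxa9-Meis1 arrays were kept out of the fit (0.071), and with deleted replicate 6 and floxed replicate 5 both left out, where the difference was 0.87 (0.0596). The floxed against Hoxa9-Meis1 call ended without deleted replicate 4 (0.0563), floxed replicate 4 (0.0654) or Hoxa9-Meis1 replicate 1 (0.115), 2 (0.0979) or 3 (0.0637).

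RefSeq promoter sequences (GRCm38.p6) were on hand for 4 of the 6 genes, 6 sequences in all, and 250 bases before the start of each were searched on both strands. These genes were Eya3, Eya4, Six4 and Dach1, and no promoter of Eya1 or Eya2 was searched. The sequences of Eya4 overlap each other, as do those of Six4, so the 6 are not separate. The motifs were the Meis motif TGACAG, the Pbx-Hox motif TGATTTAT and the Six-family motif TCAGGTT, which do not overlap each other at the matches found. Meis and Hox motifs were chosen because Hoxa9 and Meis1 are the transforming genes of the comparison leukemia, and the last because Six4 is a member. The Six-family motif stood in 1 of the 6, a Six4 promoter, and in 3.49% of 32851 promoters. The Meis motif stood in 1 of the 6, that of Dach1, and in 15.9% of promoters. The Pbx-Hox motif stood in 0 of the 6 and in 0.837% of promoters.

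The sequences with a match are shown because Six4 and Dach1 differ between the groups; capitals mark the motif, which lies on the strand opposite to the gene in both. The match starts 97 bases before the Six4 start (chr12:73113246-73113495, minus strand) and 9 bases before the Dach1 start (chr14:98169766-98170015, minus strand). A match describes the letters and is not a bound site.
Six4: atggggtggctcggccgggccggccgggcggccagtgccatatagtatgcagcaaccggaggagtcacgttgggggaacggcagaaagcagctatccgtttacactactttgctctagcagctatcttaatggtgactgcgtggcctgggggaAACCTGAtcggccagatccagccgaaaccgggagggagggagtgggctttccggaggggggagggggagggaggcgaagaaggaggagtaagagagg
Dach1: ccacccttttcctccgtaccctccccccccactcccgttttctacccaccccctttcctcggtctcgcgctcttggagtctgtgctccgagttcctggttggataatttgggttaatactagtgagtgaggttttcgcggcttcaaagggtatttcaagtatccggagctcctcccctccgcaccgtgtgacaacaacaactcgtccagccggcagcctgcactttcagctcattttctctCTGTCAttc

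By their brightest probe sets, other genes of the same developmental circuit mostly differed little between the groups. The list held 13 further measured genes of the Pax, Six-type and Dach families, each read from its brightest probe set. Between deleted and floxed leukemias limma called 0 of the 13 (2 had an unadjusted p under 0.05, and 6.39% of 18194 genes were called), with a median of 0.11 against 0.06 for all genes. In each comparison with Hoxa9-Meis1 leukemias 1 of 13 was called, Pax8, against 8.66% of genes for floxed and 14.9% for deleted leukemias. Apart from Pax8 and Six5, the genes Six2, Six3, Six6, Dach2, Pax1, Pax3, Pax4, Pax5, Pax6, Pax7 and Pax9 differed by 0.00 to 0.39 between deleted and floxed, by -0.29 to 0.16 between floxed and Hoxa9-Meis1 and by -0.20 to 0.42 between deleted and Hoxa9-Meis1 leukemias.

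Pax8, a paired-box transcription factor gene, was at 10.42, 11.03 and 9.65 in deleted, 9.12, 8.18 and 9.66 in floxed and 6.91, 6.95 and 7.08 in Hoxa9-Meis1 leukemias. Both MLL-AF9 groups lay above every Hoxa9-Meis1 array, and deleted replicate 6 and floxed replicate 6 met at 9.65 and 9.66. Relative to Hoxa9-Meis1 leukemias Pax8 was higher by 3.39 in deleted (SE 0.40, 10.5-fold, limma adjusted p = 0.00095) and by 2.01 in floxed leukemias (0.0178). The floxed call ended without floxed replicate 4 (0.0507) or Hoxa9-Meis1 replicate 1 (0.0687) or 2 (0.0581). The difference between deleted and floxed leukemias, 1.38, was not called (0.0848), and it passed without deleted replicate 6 (0.0459) or floxed replicate 6 (0.0452). The other Pax8 probe set was near background in all groups, at 4.66, 4.61 and 4.60 on average.

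Six5, a relative of Six4, was at 6.01, 6.03 and 6.50 in deleted and 6.16, 6.09 and 6.07 in floxed leukemias, against 7.92, 7.68 and 6.29 in Hoxa9-Meis1 leukemias. Hoxa9-Meis1 replicate 3 was the low one of its group for Six5. The differences from Hoxa9-Meis1 leukemias, -1.12 for deleted (limma adjusted p = 0.0754) and -1.19 for floxed leukemias (0.0806), were not called with all arrays. They were -1.62 (0.00116) and -1.69 (0.00168) without that replicate.

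**Figure D4:**
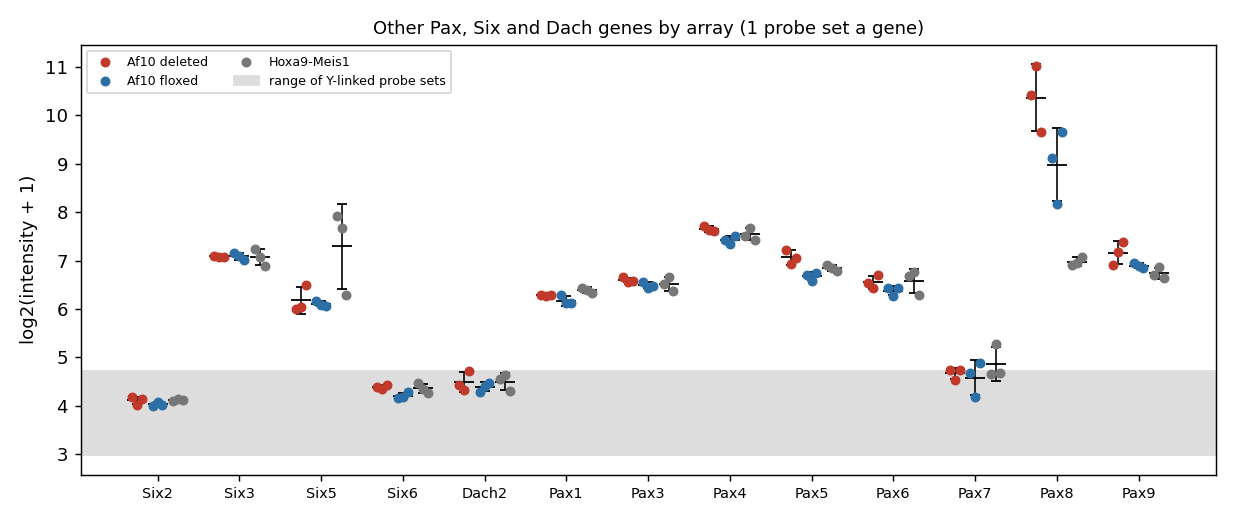
Level of 13 further genes of the Six-type, Dach and Pax families on every array (log2 of intensity + 1), 1 probe set a gene; points are arrays, bars the mean ± SD (n = 3), and the grey band the Y-linked range. Pax8 has its highest mean in deleted and its lowest in Hoxa9-Meis1 leukemias, Six5 is raised on 2 of 3 Hoxa9-Meis1 arrays, and the others lie level.

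Of 16 measured genes for partners and corepressors of these proteins, 1 rose in deleted relative to floxed leukemias (6.39% of all genes were called), 1 was higher in floxed than in Hoxa9-Meis1 (8.66%) and 2 in deleted than in Hoxa9-Meis1 leukemias (14.9%), and 0 were lower. These counts are near the shares of all genes. The median differences were 0.12, 0.02 and 0.14 in these comparisons, and those of all genes 0.06, -0.01 and 0.05. Ski, a corepressor related to Dach, averaged 10.45 ± 0.09 in deleted leukemias, against 9.76 ± 0.31 in floxed leukemias (limma adjusted p = 0.0449). That call ended without any 1 of the arrays except floxed replicate 6 (up to 0.117). With all arrays it ended under quantile normalization (0.0565), array weights (0.0556), moderation with trend (0.0501), chromosome centring (0.0511) and a fit without Hoxa9-Meis1 arrays (0.0939). Against Hoxa9-Meis1 leukemias Ski was higher in deleted by 0.92 (0.00672). Its relative Skil was higher than in Hoxa9-Meis1 leukemias by 1.10 in deleted (0.0158) and by 1.24 in floxed leukemias (0.0149). These calls ended without Hoxa9-Meis1 replicate 1 (0.0553 and 0.0588), and also without deleted replicate 4 (0.0585) for deleted and floxed replicate 5 (0.055) for floxed leukemias.

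Of 11 genes known as Six-family or Eya targets in other tissues, such as the muscle regulator gene Myog, 1 was called lower in deleted than in floxed leukemias and 0 higher (6.39% of all genes were called), with a median of 0.01 against 0.06 for all genes. That gene was Ccnd1, encoding cyclin D1, which averaged 7.97 ± 0.36 in deleted leukemias, against 9.24 ± 0.66 in floxed leukemias (difference -1.27, limma adjusted p = 0.0429). The call ended without any 1 of the arrays except floxed replicate 6 (up to 0.15). Relative to Hoxa9-Meis1 leukemias Ccnd1 was higher in floxed by 1.65 (0.0123) and Myc lower (difference -1.20, 0.0349), beside 8.66% of all genes, and 0 of 11 were called by limma for deleted leukemias, beside 14.9% (0 had an unadjusted p under 0.05; smallest limma adjusted p 0.289). The Myc call ended without deleted replicate 5 (0.0555), floxed replicate 5 (0.0722) or 6 (0.0509), or Hoxa9-Meis1 replicate 1 (0.131) or 2 (0.104). The muscle marker Ckm was at 7.15 ± 0.16 in deleted, 9.18 ± 0.98 in floxed and 7.52 ± 0.14 in Hoxa9-Meis1 leukemias, and the summed intensity of 6 muscle markers was 782 to 835, 879 to 1857 and 685 to 756 in these groups. Ckm was lower in deleted than in floxed leukemias (limma adjusted p = 0.0197) and higher in floxed than in Hoxa9-Meis1 leukemias (0.0338). The first call ended without deleted replicate 4 (0.0646) or 6 (0.0576), and the other without deleted replicate 4 or 5, floxed replicate 6 or any Hoxa9-Meis1 array (0.052 to 0.103). Its part in the levels of the target genes was not tested.

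The genes whose profiles over the 9 arrays were most like that of Eya1 were Abcc2 (Pearson's r 0.996), AW011738 (0.995) and Cldn23 (0.994), among 5829 varying probe sets. Cldn23, for a tight junction claudin, averaged 8.37 in deleted, 3.94 in floxed and 3.99 in Hoxa9-Meis1 leukemias. Abcc2, for an export pump, averaged 11.49, 8.37 and 8.59. For Six4 they were Agpat4 (0.955), Pdlim4 (0.941) and Thegl (0.930). With 9 arrays in 3 groups such correlations mostly restate the order of the group means. The group means of Eya2, Eya3, Eya4 and Dach1, each by its brightest probe set, spanned less than 1 on the log2 scale, and no like genes were listed for them.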

How the data were processed

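The deposited values are intensities, 1 for each probe set on each array, obtained by the authors with RMA (background correction, quantile normalization, probe summary), per the submitters' processing notes; the chip definition is not given in the sources used here. They run from 4.60 to 32082 and are thus linear, so log2(value + 1) was used, which understates changes of dim probe sets a little. Per the labels' protocols, each array took 100 ng of total RNA. Arrays have no sequencing depth, and their number limits the precision.

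A model with 1 mean per group was fitted to all 45101 probe sets and all 9 arrays with limma 3.58.1 in R 4.3.3 (lmFit and eBayes, two-sided, Benjamini-Hochberg adjustment over all probe sets), tested first on simulated data. Replicates 4, 5 and 6 are the labels' numbers, and Hoxa9-Meis1 arrays were numbered in accession order. Deviations of same-numbered MLL-AF9 arrays from their group means correlated at 0.032 to 0.053 over 3 pairs. Those of differently numbered arrays correlated at -0.124 to 0.073. With so few pairs these values cannot settle whether the numbers pair samples. No batch is given. The closest arrays differed by 0.22 on average, so none was a duplicate.

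Named were all member probe sets, Mllt10, listed genes that passed (the whole list of related Pax, Six-type and Dach genes) and the 3 genes most like a member whose group means span at least 1. Listed genes are represented by their brightest probe set over all arrays. Members and lists were chosen with earlier results of these data known. The alternatives were another pseudocount, normalization, filter, array weights, moderation and probe set choice, chromosome centring, the replicate block, a fit of 2 groups and leaving out arrays.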

Additional observations from a re-analysis of the deposited data

How the results depend on the processing

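The Eya1 difference at 1421727_at between deleted and floxed leukemias stayed called in all 19 alternatives, from 2.85 (pseudocount 32) to 3.50, with limma adjusted p of at most 0.0053. Between deleted and Hoxa9-Meis1 leukemias it stayed called in all 18, from 2.72 to 3.30, and between floxed and Hoxa9-Meis1 leukemias it was called in 0 of 18, from -0.28 to -0.13. Leaving out 1 array at a time gave 3.38 to 3.50, 3.16 to 3.30 and -0.28 to -0.15 in these comparisons.

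The number of member probe sets called was 4 between deleted and floxed leukemias, and 3 to 4 when 1 array was left out. It was 6 between floxed and Hoxa9-Meis1 leukemias, 2 to 7 without 1 array and 2 with a pseudocount of 32, and 8 between deleted and Hoxa9-Meis1 leukemias, 5 to 8 without 1 array and 5 with that pseudocount, which shrinks differences of dim probe sets by construction. With 1 probe set per gene it was 1, 0 and 1 of 6 genes, since the brightest probe sets of Eya4, Six4 and Dach1 are not among those called. In that setting 1246, 1618 and 2821 of all 18194 genes were called. With deleted replicate 6 and floxed replicate 5 both left out it was 3, 4 and 7.

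Under a replicate block 4 were called between deleted and floxed leukemias, and the Eya1 difference was 3.44 (limma adjusted p = 0.0053). Over the whole array the block called 1180 probe sets in place of 2779, a fit of only those 2 groups 1735, and the fit without both arrays named above 1060. The block was not used for the report because the numbers are not shown to pair samples. Ski, Klrd1 and Cd79b lost their deleted against floxed call under it (0.123, 0.0776 and 0.0589), as did Ckm and the brightest Mllt10 probe set (0.0825 and 0.0683), and so did Mllt10 without several single arrays. No result for a named member changed its direction where it was called.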
